A study of Mus musculus with 30 samples.

Results

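Salivary glands of female NOD.H-2h4 mice at week 24 were compared between 5 arrays after anti-CD40L and 5 after control antibody. These 10 arrays, of 30 in the study, were chosen by their labels: the columns of the value table for the glands taken at 24 weeks of age. All mice came from the same strain and source. When 4 weeks old, each had received a single intraperitoneal injection of 20 mg/kg of anti-CD40L, or of a human IgG1 antibody that served as isotype control, so every group had been injected and no untreated gland is among them. RNA of the whole gland was hybridised to Affymetrix whole-genome mouse arrays. The labels call the arrays of a group biological replicates and do not say whether glands of several mice were pooled, and they do not name the lobes or the antibody clone. The other 20 arrays are glands of the same design at week 8 and week 16, also 5 per group. They enter here through the shared estimate of spread and where the effect at week 24 is compared with that at an earlier age.

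CD40L is a surface protein of activated helper T cells. It binds CD40 on B cells, dendritic cells and macrophages, and signals through NF-kB for B cell survival, class switching and the germinal centre reaction. NOD.H-2h4 mice develop autoimmune inflammation of the salivary gland and thyroid, in which T cells, B cells and plasma cells gather around the ducts and can form lymphoid aggregates. The gland itself is made of saliva-secreting acini, ducts that modify the saliva, contractile myoepithelial cells and a supporting stroma.

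Levels are log2 intensities, so a difference of 1 is a doubling, and differences are anti-CD40L minus control with the standard error (SE) of the model. Each gene was read from a single probe set, and 12999 of 18194 genes had a level high enough to be tested. A gene was called when limma's adjusted p, by Benjamini-Hochberg over all genes tested, was under 0.05. When array values are listed they follow replicates 1 to 5, which have no order in time. Each call was repeated with each of the 10 arrays left out in turn, and a call that ended without an array is given with the highest adjusted p that resulted.

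The 10 arrays had medians between 5.49 and 5.54 and expressed the genes that define salivary gland. The kallikrein Klk1 lay between 14.06 and 14.23, the water channel Aqp5 between 10.89 and 12.02 and the granular duct growth factor Egf between 12.78 and 13.35. Thyroglobulin (Tg) stayed under 4.84, below the medians. Amy1, the amylase of the parotid lobe, read 13.64, 8.89, 7.01, 13.51 and 7.65 in controls and 7.34, 13.43, 10.65, 7.65 and 13.07 after anti-CD40L, so both groups held glands with and without parotid tissue (two-sided exact permutation test, n = 5 and 5, p = 0.905, adjusted p over 3 measures = 0.905). A measure of RNA quality did separate the groups: the 3' minus 5' difference, the gap in log2 signal between the ends of the Gapdh and beta-actin transcripts, which grows as RNA becomes more broken. It was 0.61, 0.29, 0.36, 0.38 and 0.39 in controls and 0.18, 0.25, 0.18, 0.16 and 0.23 after anti-CD40L (exact p = 0.00794, the smallest that 5 against 5 can give, adjusted p = 0.0238). RNA quality and treatment therefore moved together at this age and cannot be told apart within these 10 arrays. The mean level of 8 skeletal muscle genes was 6.20 ± 0.442 (SD, n = 5) in controls and 5.82 ± 0.489 (SD, n = 5) after anti-CD40L (exact p = 0.23, adjusted p = 0.345).

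**Figure D1:**
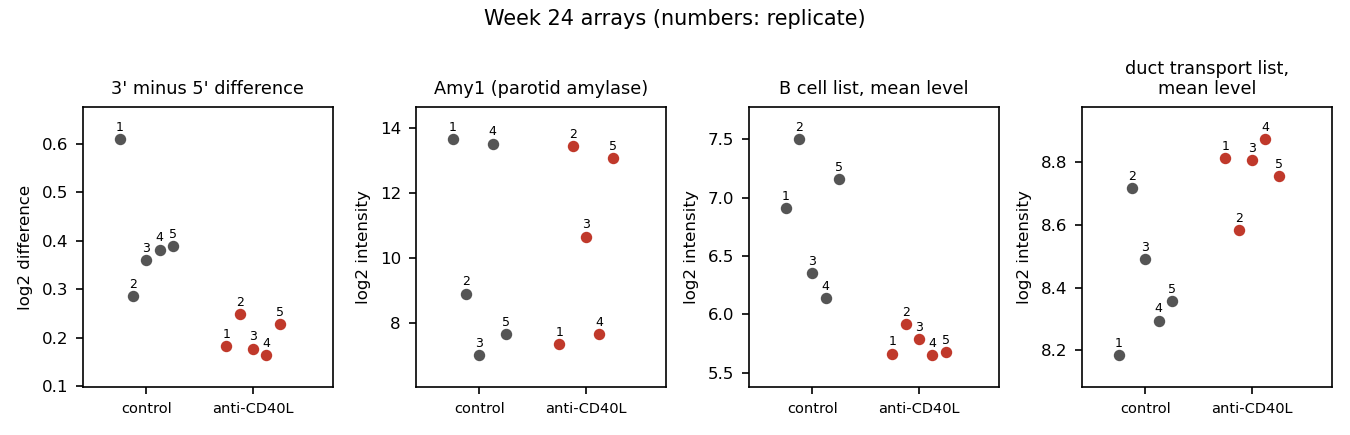
Each point is 1 week 24 array, numbered by replicate, in the control (grey) and anti-CD40L (red) groups. The vertical axes give, from left to right, the 3' minus 5' difference (log2), the Amy1 level, and the mean log2 level of the B cell and of the duct transport genes tested. The 3' minus 5' difference and the B cell level do not overlap between the groups, Amy1 does, and control replicate 1 has the highest 3' minus 5' difference (0.61) and the lowest duct transport level (8.19).

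Gene expression differed widely between the groups. Of the 12999 genes tested, 1229 were called (9.45%), with 775 higher (5.96%) and 454 lower (3.49%) after anti-CD40L. At an unadjusted p under 0.05 there were 3854 genes. The median difference over all genes was 0.03, and the median SE was 0.14. The falls included the larger differences: 85 of the lower genes exceeded 1 on the log2 scale and 19 exceeded 2, against 44 and 0 of the higher genes. In 229 genes (1.76% of those tested) every treated array lay below every control, and in 829 (6.38%) every treated array lay above. The split of higher and lower calls moved with the normalization, from 63.0% higher among the calls as deposited to 48.4% after quantile normalization.

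Control replicate 1 weighed on these counts. It was the lowest of the 10 arrays for 75.9% of the 775 higher genes, against 31.7% of all genes tested, and the highest for 56.6% of the lower ones. Without it 122 genes were higher and 104 lower. Without control replicate 2, which had the most B cell RNA, 1522 were higher and 610 lower. Leaving out anti-CD40L replicate 4 gave 231 higher and 166 lower. With the 3' minus 5' difference as a covariate over the 30 arrays, 23 genes were called, 5 higher and 18 lower. The 18 lower ones are named in the text except for 1 immunoglobulin variable gene.

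Of the target pair, the ligand was near background and the receptor fell. Cd40lg read between 4.46 and 5.06 in controls and between 4.52 and 4.98 after anti-CD40L, under the level needed for testing. Cd40, the receptor, read 7.11, 6.58, 6.79, 6.36 and 6.54 in controls and 6.57, 6.25, 5.67, 6.09 and 5.86 after anti-CD40L. In 4 of the 5 treated arrays it lay below every control. The difference was -0.59 ± 0.157 (SE, limma adjusted p = 0.0229), and both other probe sets of the gene were lower too. The Cd40 call ended in 5 of the 10 fits with an array left out (adjusted p up to 0.108, without control replicate 1), and with the 3' minus 5' covariate (adjusted p = 0.432).

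Of 10 tested genes of CD40 and NF-kB signalling, 4 fell and 0 rose, against 3.49% lower and 5.96% higher among all genes, and their median difference was -0.27. Cd83, an activation marker of B cells and dendritic cells, read 8.12, 8.35, 7.10, 6.36 and 7.82 in controls and 6.12, 6.65, 6.19, 5.76 and 5.82 after treatment. All treated arrays but replicate 2 lay below the lowest control, and Cd83 fell by 1.44 ± 0.317 (limma adjusted p = 0.00869). Icosl, which encodes the partner of the helper T cell receptor ICOS, fell by 0.48 ± 0.107 with no overlap between the groups (limma adjusted p = 0.00932), although its other probe set moved the opposite way. Traf1, an adaptor of TNF receptors, fell by 0.63 ± 0.181 (limma adjusted p = 0.0312), a call that ended in 6 of the 10 fits with an array left out (adjusted p up to 0.142, without control replicate 1).

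The largest fall of any called gene was that of the IgM heavy chain. Of the 5 tested constant region genes and J chain, 4 fell and 0 rose, against 3.49% lower among all genes, with a median of -1.80. Ighm, the constant region of IgM, read 12.44, 13.28, 12.52, 12.19 and 13.39 in controls and 7.76, 11.16, 7.79, 9.61 and 7.60 after anti-CD40L. The groups did not overlap, and the treated arrays were uneven, replicates 2 and 4 standing above the other 3. The difference of -3.98 ± 0.769 is 15.8-fold (limma adjusted p = 0.00429), and all 10 other probe sets of the gene moved the same way. Ighg3, the constant region of IgG3, read 8.55, 10.28, 7.61, 7.16 and 9.80 in controls. After anti-CD40L it was 6.22, 6.15, 5.998, 5.99 and 6.04, a narrow band below every control. It fell by 2.60 ± 0.409 (limma adjusted p = 0.000887), while 2 of its 3 other probe sets moved the opposite way.

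Igha, the heavy chain of IgA, named here after its values were seen, read 13.02, 13.40, 13.45, 13.60 and 13.54 in controls and 12.36, 13.18, 13.24, 12.77 and 12.88 after anti-CD40L, so the groups overlapped in 2 of the treated arrays. The difference of -0.51 ± 0.266 did not pass the threshold (limma adjusted p = 0.194), and its 2 other probe sets differed by -0.73 and -1.12. Whether it differs from the falls of Ighm and Ighg3 was not tested. Jchain, which joins IgA dimers and IgM pentamers, read 12.73, 12.55, 12.40, 12.36 and 12.79 against 9.70, 11.47, 11.29, 10.48 and 10.89. It fell by 1.80 ± 0.337, or 3.48-fold (limma adjusted p = 0.00335), without overlap. The kappa light chain Igk fell by 1.24 ± 0.229 (limma adjusted p = 0.00297), again without overlap, with 1 of its 3 other probe sets moving the opposite way. These 4 calls of constant region genes and J chain held in each fit with an array left out, and Ighg3 alone held with the 3' minus 5' covariate (adjusted p = 0.0122).

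Of the 8 immunoglobulin variable genes tested, 7 fell and in the same number every treated array lay below every control; the median was -2.03. Igkv6-14 read 8.04, 9.46, 7.82, 7.95 and 8.99 in controls and 4.48, 6.80, 5.77, 4.61 and 4.26 after anti-CD40L, and fell by 3.27 ± 0.448 (limma adjusted p = 0.000149). Igkv6-20 fell by 3.30 ± 0.533 (limma adjusted p = 0.00107), the lambda gene Iglv1 fell by 2.83 ± 0.495 (limma adjusted p = 0.00197) and Igkv8-30 fell by 1.26 ± 0.291 (limma adjusted p = 0.0114). Igkv6-14 and Igkv6-20 were also called with the 3' minus 5' covariate (adjusted p = 0.00687 and 0.0198).

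B cell genes fell as a group. Of 26 listed, 19 were tested, 14 fell and 0 rose, against 3.49% lower and 5.96% higher among all genes, with a median of -0.98. In 10 the groups did not overlap (1.76% of all genes). A gene low in every group but the week 24 controls can pass the filter through those controls alone, so this count describes the genes that passed; with no filter 20 of the 25 with a probe set fell. Ms4a1, which encodes CD20, read 9.90, 9.97, 7.33, 6.51 and 9.33 in controls and 4.78, 5.38, 4.87, 4.93 and 4.56 after anti-CD40L. The controls divided into 3 arrays above 9 and 2 below 8, and the treated arrays all lay below the array medians. Ms4a1 fell by 3.70 ± 0.585 (limma adjusted p = 0.000887), a log2 difference from a level near background, for which no fold is given. Cd79b, the signalling chain of the B cell receptor, read 7.98, 8.74, 6.63, 6.29 and 7.92 against 4.73, 5.20, 4.83, 5.03 and 4.82. It fell by 2.59 ± 0.358 (limma adjusted p = 0.000149), and its partner Cd79a, named after its values were seen, by 1.38 ± 0.225 (limma adjusted p = 0.00115). In whole tissue, fewer cells of a type and less RNA per cell cannot be told apart.

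Control replicates 3 and 4 were also the lowest controls for further lymphocyte genes. H2-Ob, a modulator of class II peptide loading in B cells, read 7.30, 8.08, 4.72, 4.29 and 7.33 in controls and between 3.51 and 4.00 after anti-CD40L, and fell by 2.60 ± 0.548 (limma adjusted p = 0.00691). Bank1, a B cell scaffold protein, fell by 1.77 ± 0.364 (limma adjusted p = 0.00652). Both genes dropped under the filter without control replicate 1, 2 or 5. Btla, an inhibitory receptor of lymphocytes, read 7.31, 8.02, 5.97, 5.14 and 7.53 against 4.25, 4.63, 4.61, 5.04 and 4.50, and fell by 2.19 ± 0.37 (limma adjusted p = 0.0015). Of the B cell genes that did not pass, the transcription factors Pax5, Ebf1 and Pou2f2 had differences of -0.17 (limma adjusted p = 0.302), 0.34 (limma adjusted p = 0.107) and 0.01 (limma adjusted p = 0.961). The count of B cell genes lower was 9 without control replicate 1 and 9 without control replicate 5. It was 3 with the 3' minus 5' covariate (Ms4a1, Cd79a and Cd79b), 11 among the 5 arrays with Amy1 under 10 and 0 among those with Amy1 over 10, where the median was -0.44.

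Plasma cell genes changed in part. Of 17 tested, 5 fell and 0 rose, against 3.49% lower and 5.96% higher among all genes, with a median of -0.12. Leaving out an array gave 3 to 5 lower, with 3 without anti-CD40L replicate 1, 4 or 5 or control replicate 3. The 3' minus 5' covariate gave 2. Mzb1, a chaperone of immunoglobulin assembly in marginal zone B cells and plasma cells, read 10.61, 10.66, 9.90, 9.56 and 10.72 in controls and 6.84, 8.43, 7.94, 7.56 and 7.62 after anti-CD40L. The nearest arrays of the groups were over 1 apart, and Mzb1 fell by 2.62 ± 0.344 (limma adjusted p = 0.000119). Irf4, a transcription factor of plasma cells and activated lymphocytes, fell by 0.81 ± 0.211 (limma adjusted p = 0.02), a call lost in 4 of the 10 fits with an array left out (adjusted p up to 0.0675, without anti-CD40L replicate 1). The secretory regulator Xbp1, which glandular cells also express, had a difference of -0.06 ± 0.104 (limma adjusted p = 0.715), Prdm1 one of -0.29 ± 0.165 (limma adjusted p = 0.231) and Sdc1, the plasma cell surface protein also found on epithelium, one of 0.23 ± 0.179 (limma adjusted p = 0.398).

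The cytokine BAFF and its receptors were called lower, 4 of 4 tested (3.49% of all genes), with a median of -1.06. These were all the listed genes with a probe set. The receptor genes averaged below the array medians in every group but the week 24 controls. They can have passed the filter through those controls alone, and the count carries that limit. After anti-CD40L the receptor genes Tnfrsf13b, Tnfrsf17 and Tnfrsf13c averaged 5.27, 4.83 and 5.21, below the array medians and near background, which limits the size of their falls. Tnfrsf13b, encoding the receptor TACI, read 6.90, 7.22, 6.33, 6.23 and 6.68 in controls and 5.23, 5.86, 4.84, 5.28 and 5.13 after anti-CD40L. It fell by 1.40 ± 0.206 (limma adjusted p = 0.000369) and kept its call with the 3' minus 5' covariate (adjusted p = 0.00712). Tnfrsf17, the plasma cell receptor BCMA, fell by 1.15 ± 0.208 (limma adjusted p = 0.00247) and Tnfrsf13c, the BAFF receptor of B cells, by 0.98 ± 0.206 (limma adjusted p = 0.00711), both without overlap of the groups. The ligand Tnfsf13b fell by 0.49 ± 0.156 (limma adjusted p = 0.0456), with only 2 treated arrays below every control and 1 of its 2 other probe sets opposite; its call ended in 8 of the 10 fits with an array left out (adjusted p up to 0.116, without anti-CD40L replicate 4). Of 8 genes of IgA export and lymphocyte homing to mucosa, 2 fell. Itgb7, an integrin chain of gut and gland homing lymphocytes, fell by 0.58 ± 0.128 (limma adjusted p = 0.00932). Ccr10, a chemokine receptor of IgA plasma cells, fell by 0.46 ± 0.145 (limma adjusted p = 0.0432), lost in 6 of the 10 fits with an array left out (adjusted p up to 0.142, without anti-CD40L replicate 4). Pigr, which carries IgA across the epithelium, had a difference of 0.40 ± 0.22 (limma adjusted p = 0.218).

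**Figure D2:**
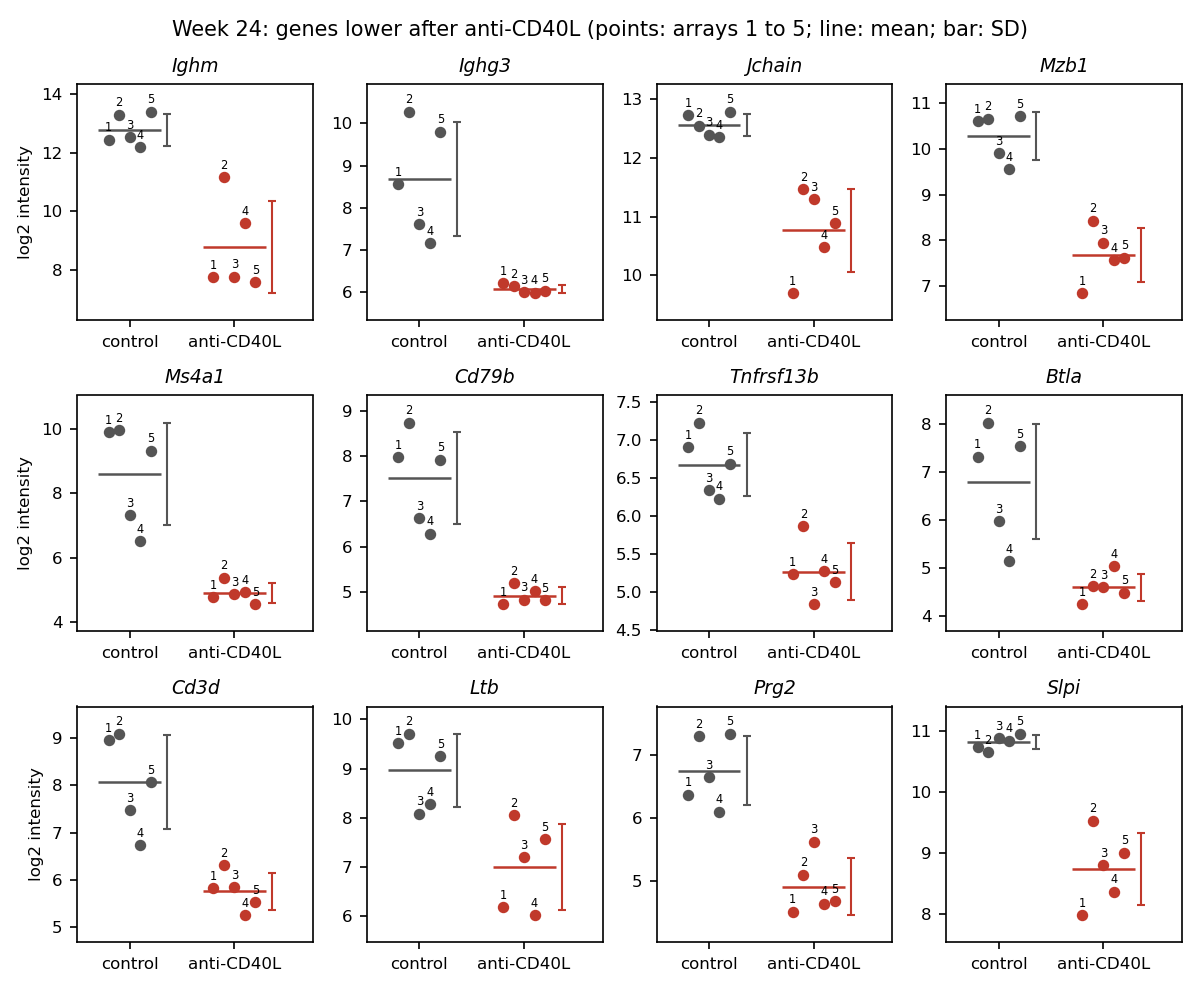
Log2 intensity of 12 genes that fell, in the 5 control (grey) and 5 anti-CD40L arrays (red), numbered by replicate, with the mean as a line and the SD as a bar. The groups do not overlap in any of the 12. Control replicates 3 and 4 are the lowest controls for Ms4a1, Cd79b, Btla and Cd3d, while Jchain and Slpi have narrow control groups.

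T cell genes fell in the same direction as B cell genes. Of 30 listed, 16 were tested, 10 fell and 0 rose, against 3.49% lower and 5.96% higher among all genes, with a median of -0.68. In 5 the groups did not overlap, every treated array lying below every control (1.76% of all genes). As with the B cell genes, a gene can pass the filter through the week 24 controls alone, so these counts describe the genes that passed. Cd3d, a chain of the T cell receptor complex, read 8.96, 9.09, 7.48, 6.73 and 8.06 in controls and 5.83, 6.31, 5.85, 5.25 and 5.54 after anti-CD40L. It fell by 2.31 ± 0.464, or 4.95-fold (limma adjusted p = 0.00576). Cd2, an adhesion receptor of T cells, fell by 1.70 ± 0.353 (limma adjusted p = 0.00667). Cd3g fell by 2.15 ± 0.537 (limma adjusted p = 0.0165) and Ms4a4b by 2.60 ± 0.594 (limma adjusted p = 0.0106). Both lost the call without control replicate 1 (adjusted p = 0.0718 and 0.0525), and the other probe set of Ms4a4b moved the opposite way. Trbv1, a T cell receptor variable gene, fell by 2.40 ± 0.597 (limma adjusted p = 0.0163; 0.0722 without control replicate 1). Cd4, named after its values were seen, fell by 0.94 ± 0.291 (limma adjusted p = 0.0413), a call that ended in 6 of the 10 fits with an array left out (adjusted p up to 0.13, without control replicate 1), while Cd8a had a difference of -0.10 ± 0.188 (limma adjusted p = 0.748); whether the difference of these genes differs was not tested. The number of T cell genes lower was 5 without control replicate 1 and 1 with the 3' minus 5' covariate. That gene, Cd96, a receptor of T and NK cells named after its values were seen, fell by 0.78 ± 0.137 (limma adjusted p = 0.00197). It dropped under the filter without control replicate 1, 2, 4 or 5.

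Of 7 helper T cell genes, 3 fell and 0 rose, against 3.49% lower and 5.96% higher among all genes, with a median of -0.42. They were Slamf6 (-0.80 ± 0.207, limma adjusted p = 0.0189), Tnfrsf18, which encodes GITR (-0.65 ± 0.207, limma adjusted p = 0.0465), and Tnfrsf4, which encodes OX40 (-0.44 ± 0.133, limma adjusted p = 0.0377). Of the 2 other probe sets of Slamf6, 1 moved the opposite way. The number of fits with an array left out in which the call ended was 2, 7 and 7 of 10, and the adjusted p without control replicate 1 was 0.0615, 0.17 and 0.101. All 11 cytotoxic lymphocyte genes had values below 0, with a median of -0.77, and 2 of them passed. Klrd1, a receptor chain of NK and cytotoxic T cells, fell by 1.60 ± 0.506 (limma adjusted p = 0.046) and Klrk1, which encodes NKG2D, by 0.82 ± 0.241 (limma adjusted p = 0.0355). Control replicate 1 had the highest level of both, and without it the adjusted p was 0.214 and 0.148. None of 6 germinal centre genes was called, the largest difference being 0.37 ± 0.145 for Gna13 (limma adjusted p = 0.0906), and Il21r differed by -0.30 ± 0.155 (limma adjusted p = 0.191).

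Genes shared by leukocytes fell too: 12 of 23 tested (3.49% of all genes), with 0 higher and a median of -0.64. Ptprc, which encodes CD45 and is carried by all nucleated blood cells, read 10.13, 10.56, 8.90, 8.13 and 10.40 in controls and 7.25, 8.26, 7.66, 7.60 and 7.36 after anti-CD40L. Treated replicate 2 lay above the lowest control, and Ptprc fell by 2.00 ± 0.507 (limma adjusted p = 0.0176; 0.067 without control replicate 1). Cd53, a leukocyte tetraspanin, fell by 1.81 ± 0.376 (limma adjusted p = 0.00664) and Cd52, a surface protein of lymphocytes, by 2.03 ± 0.463 (limma adjusted p = 0.0107). Coro1a, an actin regulator of leukocytes, fell by 1.74 ± 0.414 (limma adjusted p = 0.0133; 0.0602 without control replicate 1). The count of leukocyte genes lower was 5 without control replicate 1, 7 without anti-CD40L replicate 4 and 0 with the 3' minus 5' covariate, where the median was -0.72.

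Of 9 genes that organise lymphoid tissue, 3 fell and 0 rose, against 3.49% lower and 5.96% higher among all genes. Ltb, encoding lymphotoxin beta, a lymphocyte cytokine that maintains lymphoid structures, read 9.52, 9.71, 8.08, 8.27 and 9.25 in controls and 6.18, 8.05, 7.20, 6.02 and 7.56 after anti-CD40L. The groups came within 0.1 of each other without overlapping, and Ltb fell by 1.96 ± 0.393 (limma adjusted p = 0.00566). Cxcr4, a chemokine receptor of lymphocytes, fell by 1.76 ± 0.376 (limma adjusted p = 0.00748). Cxcl13, the chemokine that draws B cells into follicles, read 8.82, 9.29, 8.07, 7.29 and 8.82 against 6.75, 7.81, 6.85, 6.75 and 7.25. It fell by 1.38 ± 0.38 (limma adjusted p = 0.0262), a call that ended in 4 of the 10 fits with an array left out (adjusted p up to 0.0929, without control replicate 1). Of 6 genes of lymph node vessels 0 were called. Glycam1, an adhesion ligand made by the high endothelial venules of lymph nodes, was 8.33 and 7.95 in control replicates 1 and 2, between 4.60 and 5.33 in the other controls, and between 4.23 and 4.78 after anti-CD40L (-1.82 ± 0.799, limma adjusted p = 0.127). Those 2 controls also had high B and T cell levels, and the part of lymph node tissue in the lymphocyte results was not tested. Mean B cell levels of the 5 controls, by replicate, were 6.91, 7.5, 6.35, 6.14 and 7.16. Their Glycam1 levels, in the same order, were 8.33, 7.95, 5.01, 4.60 and 5.33. Treated arrays had mean B cell levels from 5.65 to 5.92.

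**Figure D3:**
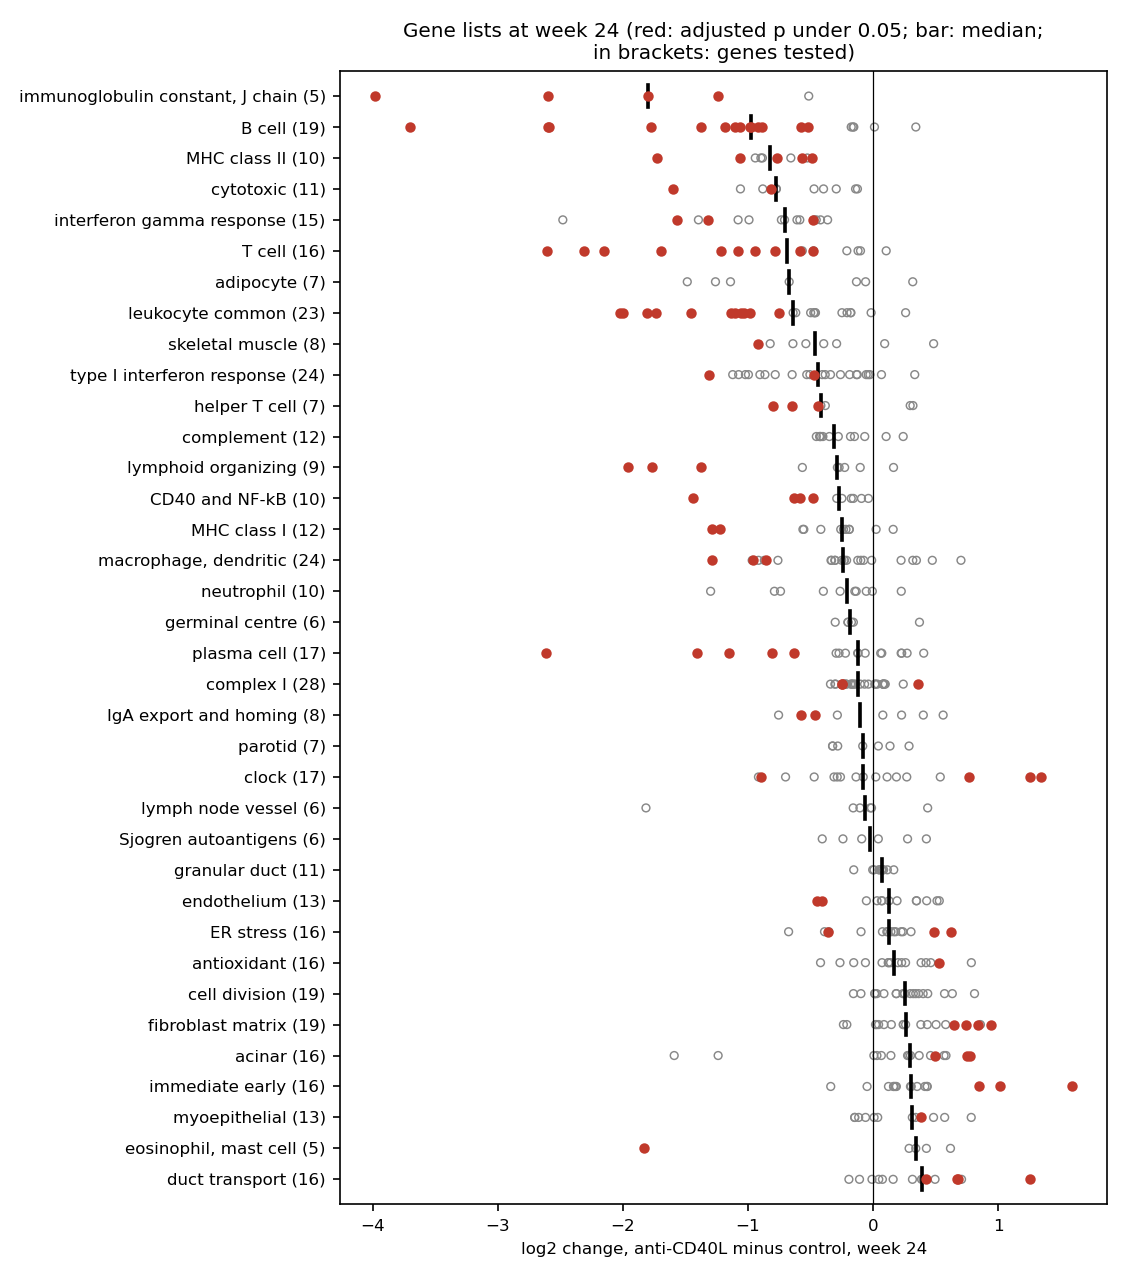
Each row is a gene list (number of genes tested in brackets) and each point a gene, placed by its log2 difference at week 24; filled red points have a limma adjusted p under 0.05 and the bar is the median. The lowest called point is Ighm (-3.98) in the immunoglobulin constant row, and the called genes of the acinar, duct transport, immediate early and fibroblast rows all lie to the right of 0.

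All 10 MHC class II genes tested had values below 0, with a median of -0.83, and 5 fell, against 3.49% lower among all genes. The peptide loading genes H2-DMb2 (-1.72 ± 0.336, limma adjusted p = 0.00439) and H2-Oa (-1.07 ± 0.27, limma adjusted p = 0.0175) led them. Ctss, the protease that frees the class II groove, fell by 0.77 ± 0.232 (limma adjusted p = 0.0385), and Ciita, the master regulator of class II, by 0.56 ± 0.176 (limma adjusted p = 0.0432). The calls of Ctss and Ciita each ended in 8 of the 10 fits with an array left out (adjusted p up to 0.112 and 0.133, without control replicate 1), and that of H2-Oa ended without control replicate 1 (adjusted p = 0.0594). The class II structural genes H2-Ab1 and Cd74 had differences of -0.90 ± 0.412 (limma adjusted p = 0.144) and -0.52 ± 0.384 (limma adjusted p = 0.366). The count of class II genes lower ranged from 1 (without control replicate 1) to 6 and was 0 with the 3' minus 5' covariate, where the median was -0.84. Of 12 class I loading genes, 2 fell, the immunoproteasome subunits Psmb8 (-1.29 ± 0.377, limma adjusted p = 0.0342) and Psmb9 (-1.22 ± 0.366, limma adjusted p = 0.0376). Their calls ended in 7 and 8 of the 10 fits with an array left out (adjusted p up to 0.108 and 0.128, without control replicate 1), and the other probe set of Psmb8 moved the opposite way.

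Interferon-induced genes were lower in value across the list, with few calls. Among all genes 3.49% were called lower. All 15 genes of the interferon gamma list had differences below 0, with a median of -0.71, and 3 fell: Ubd (-1.56 ± 0.48, limma adjusted p = 0.0404), the GTPase Ifi47 (-1.32 ± 0.365, limma adjusted p = 0.0264) and the transcription factor Irf8 (-0.48 ± 0.12, limma adjusted p = 0.0167). Without control replicate 1 the adjusted p of Ubd and Ifi47 was 0.153 and 0.0917, and their calls ended in 8 and 5 of the 10 such fits. The chemokine Cxcl9, named after its values were seen, had the largest difference of the list, -2.48 ± 0.838, and did not pass (limma adjusted p = 0.0576). It read 8.94, 8.67, 7.21, 6.66 and 9.03 in controls and 4.82, 7.61, 5.89, 4.68 and 5.10 after anti-CD40L, with 4 treated arrays below every control. In the type I interferon list 22 of 24 genes had values below 0 (5952 of 12999 over all genes), with a median of -0.44, and 2 fell. Oas1a, a sensor of double-stranded RNA, read 8.73, 9.34, 8.61, 8.26 and 9.60 against 7.28, 8.19, 7.33, 7.36 and 7.81, and fell by 1.31 ± 0.295 without overlap (limma adjusted p = 0.00981). Zbp1, a nucleic acid sensor, fell by 0.48 ± 0.153 (limma adjusted p = 0.0481), lost in 8 of the 10 fits with an array left out (adjusted p up to 0.146, without anti-CD40L replicate 4).

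Promoter sequence was read from RefSeq windows of 250 bases before to 50 after a transcript start (build GRCm38.p6), with motifs chosen after the differences were known. Windows were found for 107 of the named genes. A gene can have several windows and counted as a match when any of them held the motif. The shares of windows and the counts of genes below are therefore not comparable. The interferon response motif, GAAA, any 2 bases and GAAA again, searched on both strands, was in 3.44% of all 32851 windows and in those of 8 of the 107 genes, among them Oas1a, Ctss, Tnfsf13b and Tnfrsf17, which fell, and Foxi1 and Tmigd1, which rose. The kappa B motif of NF-kB, 10 bases long, was in 0.155% of windows on either strand, those of Ltb, where the capitals give its letters on the reverse strand, and the cell division gene Birc5 among them. The octamer ATGCAAAT of B cell promoters, on either strand, was in 1.74% of windows and in none of the 107, which says only that these letters are not in these windows. The stretches around the match are printed for the genes of the interferon, BAFF and lymphotoxin results above, 5' to 3' along the gene, with the motif in capitals; in Oas1a a second match overlaps the one shown. They lie at chr5:120907526-120907575 (minus strand), chr3:95526735-95526785 (plus), chr8:10006587-10006632 (plus) and chr17:35194390-35194459 (plus).
Oas1a: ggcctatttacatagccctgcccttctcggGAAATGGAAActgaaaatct
Ctss: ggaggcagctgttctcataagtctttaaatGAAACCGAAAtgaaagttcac
Tnfsf13b: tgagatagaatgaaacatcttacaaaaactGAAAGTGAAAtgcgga
Ltb: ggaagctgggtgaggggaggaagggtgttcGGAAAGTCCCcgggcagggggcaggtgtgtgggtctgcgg
The 3 interferon motifs begin 20, 21 and 16 bases before the transcript start of their window, and the Ltb match, on the reverse strand, begins 87 bases before its own. For Oas1a and Tnfsf13b the RefSeq gene reaches further upstream than that start, so the printed stretch lies partly or wholly inside the gene. A match is a description of the sequence and was not tested for binding.

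Myeloid genes were called less often by count than lymphocyte genes, a difference that was not tested. Of 24 macrophage and dendritic cell genes, 3 fell and 0 rose, against 3.49% lower and 5.96% higher among all genes, with a median of -0.24. Clec7a, the receptor Dectin-1, read 8.77, 8.02, 8.22, 7.45 and 8.10 in controls and 7.04, 7.38, 6.82, 6.47 and 6.43 after anti-CD40L, without overlap, and fell by 1.28 ± 0.318 (limma adjusted p = 0.0159). Its call ended in 2 of the 10 fits with an array left out (adjusted p up to 0.071, without control replicate 1). Ms4a7 fell by 0.96 ± 0.294 (limma adjusted p = 0.0402), with its other probe set opposite, and the signalling adaptor Tyrobp by 0.85 ± 0.248 (limma adjusted p = 0.0327); both calls ended in 6 of the 10 such fits (adjusted p 0.144 and 0.138 without control replicate 1). The macrophage receptor Csf1r had a difference of 0.35 (limma adjusted p = 0.269). Of 10 neutrophil genes 0 were called, S100a8 differing by -0.79 ± 0.342 (limma adjusted p = 0.124) and the milk and saliva protein lactoferrin, Ltf, by -1.30 ± 0.879 (limma adjusted p = 0.327). Of 12 complement genes 0 were called. Cfp, which encodes properdin, differed by -0.45 ± 0.188 (limma adjusted p = 0.109) and C1qb by -0.43 ± 0.294 (limma adjusted p = 0.337).

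Prg2 had the smallest p of all genes at this age. It encodes the major basic protein of eosinophil granules, and read 6.37, 7.29, 6.65, 6.10 and 7.33 in controls and 4.52, 5.10, 5.62, 4.64 and 4.69 after anti-CD40L. Of the treated arrays 4 lay below the array medians, so no fold is given. The difference of -1.83 ± 0.22 passed (limma adjusted p = 6.03e-05) and held with the 3' minus 5' covariate (adjusted p = 0.00225) and in each fit with an array left out. Of 12 listed eosinophil and mast cell genes 5 were tested, and Prg2 was the only eosinophil gene among them. The other 4 had values above 0 and none was called: the mast cell proteases Cpa3 (0.34, limma adjusted p = 0.266), Cma1 (0.62, limma adjusted p = 0.0796) and Tpsb2 (0.43, limma adjusted p = 0.0897), and the receptor Kit (0.29, limma adjusted p = 0.402).

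Slpi, a secreted inhibitor of leukocyte proteases with antimicrobial activity, fell from a narrow range in controls. These read 10.74, 10.66, 10.88, 10.84 and 10.95, and the treated arrays 7.98, 9.53, 8.80, 8.37 and 9.01. Every treated array was over 1 below every control. The difference of -2.08 ± 0.273, or 4.22-fold, passed limma's test (adjusted p = 0.000119) and also passed with the 3' minus 5' covariate (adjusted p = 0.00687). Further genes called with that covariate, named after their values were seen, were Glipr1 (-1.84 ± 0.287 without the covariate, limma adjusted p = 0.000839), the sialyltransferase St6gal1 (-1.01 ± 0.196, limma adjusted p = 0.00439), the proton channel Hvcn1 (-0.73 ± 0.195, limma adjusted p = 0.0224), the inhibitory B cell lectin Siglecg (-0.58 ± 0.139, limma adjusted p = 0.0135) and the transcription factor Lyl1 (-0.57 ± 0.134, limma adjusted p = 0.0131). In each of these the groups did not overlap, and the other probe set of Glipr1 moved the opposite way; Hvcn1 lost its call in 3 of the 10 fits with an array left out (adjusted p up to 0.0635, without anti-CD40L replicate 4).

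The 15 largest rises lay between 1.24 and 1.64. Ppargc1a, the coactivator PGC-1 alpha that drives mitochondrial genes, read 7.39, 8.25, 7.61, 8.38 and 7.94 in controls and 9.75, 9.20, 9.49, 9.90 and 8.65 after anti-CD40L. The groups did not overlap, and Ppargc1a rose by 1.48 ± 0.249, or 2.79-fold (limma adjusted p = 0.0015), with its 4 other probe sets in the same direction. Nol4l rose by 1.28 ± 0.215 (limma adjusted p = 0.0015), 1 of its 2 other probe sets moving the opposite way. Cldn1, a tight junction protein, rose by 1.45 ± 0.322 (limma adjusted p = 0.00904), and 2 of its 3 other probe sets moved the opposite way. These 3 calls held in each fit with an array left out. None of the 15 was called with the 3' minus 5' covariate, where the adjusted p of Ppargc1a and Nol4l was 0.0891 and that of Cldn1 0.208.

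Other large rises leaned on control replicate 1, which was their lowest or second lowest array. Prp2, a proline-rich salivary protein, rose by 1.64 ± 0.511 (limma adjusted p = 0.0431), Kdf1, an epidermal differentiation factor, by 1.55 ± 0.441 (limma adjusted p = 0.0301), and the transcription factors Tfap2b by 1.38 ± 0.37 (limma adjusted p = 0.0229) and Zfhx3 by 1.38 ± 0.363 (limma adjusted p = 0.021). Without control replicate 1 the adjusted p of Prp2, Kdf1, Tfap2b and Zfhx3 was 0.142, 0.108, 0.112 and 0.104, and the calls ended in 8, 6, 4 and 3 of the 10 such fits. Mob3b (1.37 ± 0.32, limma adjusted p = 0.0119), Ago2, the slicer of RNA interference (1.24 ± 0.308, limma adjusted p = 0.0159), and the predicted gene Gm38910 (1.53 ± 0.349, limma adjusted p = 0.0106) lost the call without that array alone (adjusted p = 0.0545, 0.0714 and 0.0519). The kinase Sik3 rose by 1.29 ± 0.362 (limma adjusted p = 0.0288), lost in 4 of the 10 fits (adjusted p up to 0.138, without control replicate 1), with 1 of 3 other probe sets opposite.

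Duct genes rose in part. Of 16 duct and ion transport genes, 4 rose and 0 fell, with a median of 0.40, against 5.96% higher among all genes. Foxi1, the transcription factor of ionocytes, read 6.68, 7.98, 7.14, 7.09 and 6.89 in controls and 8.58, 7.98, 8.51, 8.82 and 8.18 after anti-CD40L. The lowest treated array met the highest control, both being replicate 2, and Foxi1 rose by 1.26 ± 0.222 (limma adjusted p = 0.00217). Elf5, a transcription factor of secretory and duct epithelium, read 10.91, 11.14, 10.82, 11.15 and 11.08 against 11.96, 11.53, 11.63, 11.87 and 11.51, and rose by 0.68 ± 0.119 (limma adjusted p = 0.00197). The epithelial sodium channel subunits Scnn1g (0.67 ± 0.196, limma adjusted p = 0.0332) and Scnn1a (0.42 ± 0.134, limma adjusted p = 0.0465) lost their calls in 5 and 7 of the 10 fits with an array left out (adjusted p up to 0.108 and 0.213, without control replicate 1). With the 3' minus 5' covariate 0 of the 16 were called and the median was 0.10.

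Among 16 acinar genes, 3 rose and 0 fell, against 5.96% higher and 3.49% lower among all genes, with a median of 0.29. Bhlha15, which encodes the secretory cell regulator MIST1, read 10.20, 10.96, 10.57, 10.80 and 11.14 in controls and 11.62, 11.27, 11.56, 11.75 and 11.34 after anti-CD40L, without overlap. It rose by 0.77 ± 0.186 (limma adjusted p = 0.0134; 0.0665 without control replicate 1). Sox10, a progenitor and acinar transcription factor, rose by 0.75 ± 0.193 (limma adjusted p = 0.0189) and the folate receptor Folr1 by 0.50 ± 0.143 (limma adjusted p = 0.0305). Of the 2 other probe sets of Sox10, 1 moved the opposite way. The calls of Sox10 and Folr1 ended in 3 and 5 of the 10 fits with an array left out (adjusted p up to 0.094, without control replicate 1, and 0.0741, without control replicate 3). Aqp5 had a difference of 0.28 ± 0.14 (limma adjusted p = 0.184) and the chloride cotransporter Slc12a2 one of 0.14 ± 0.0896 (limma adjusted p = 0.284). Of the secreted products, 0 of 11 granular duct genes were called, Egf differing by 0.17 ± 0.143 (limma adjusted p = 0.446) and Crisp3 by -0.15 ± 0.185 (limma adjusted p = 0.597). None of 7 parotid genes was called: Dnase1 ran from 7.35 to 14.01 in controls and from 6.27 to 13.94 after anti-CD40L (limma adjusted p = 0.919), and Prpmp5 from 3.28 to 8.35 and from 3.40 to 8.46 (limma adjusted p = 0.874). Of 13 myoepithelial genes 1 rose, or 7.69%, near the 5.96% higher among all genes. It was Trp63 (0.39 ± 0.11, limma adjusted p = 0.0301), which also marks basal duct cells. Its 3 other probe sets moved the opposite way. The Trp63 call ended in 6 of the 10 fits with an array left out (adjusted p up to 0.0802, without anti-CD40L replicate 4).

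**Figure D4:**
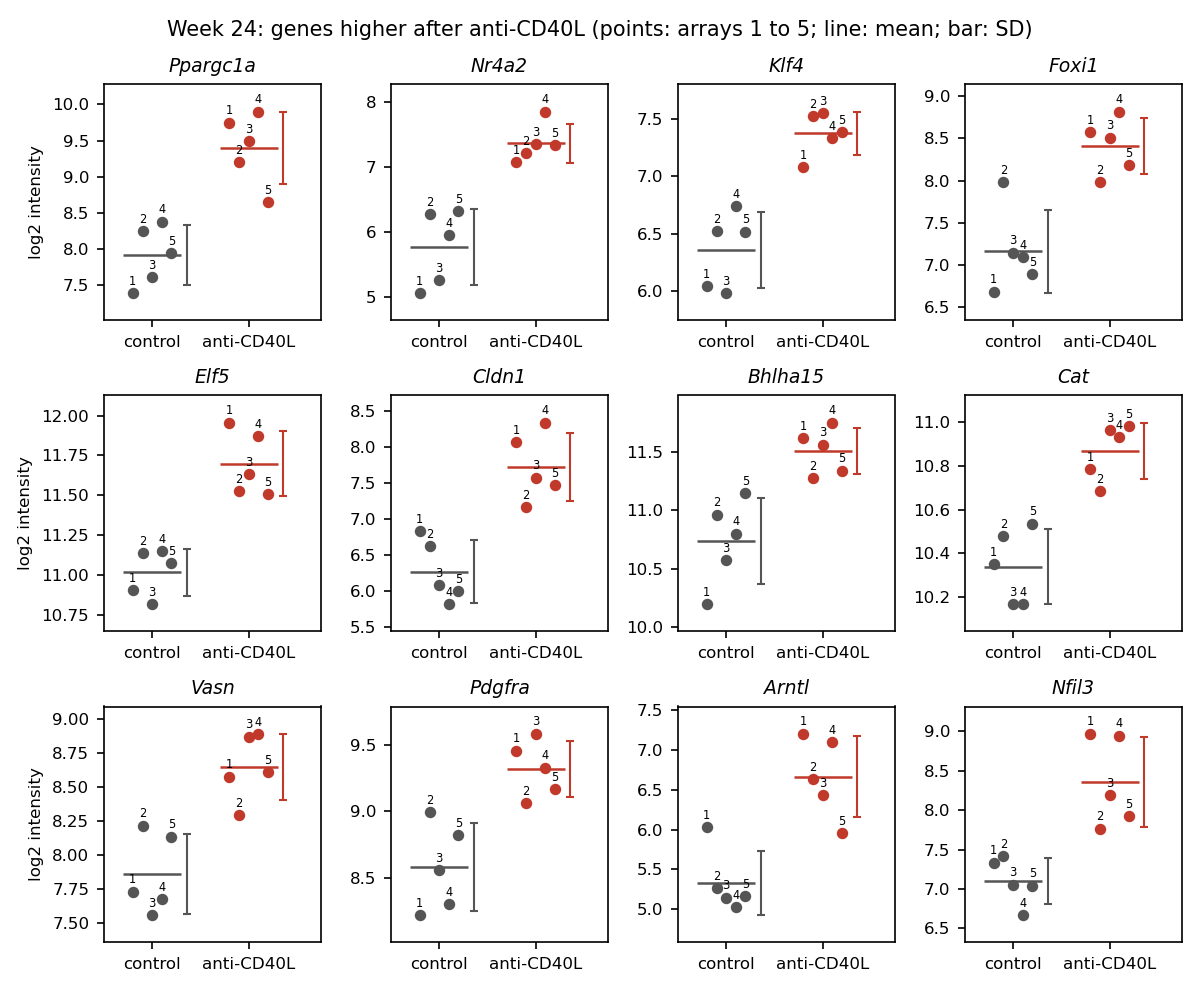
Log2 intensity of 12 genes that rose, in the 5 control (grey) and 5 anti-CD40L arrays (red), numbered by replicate, with the mean as a line and the SD as a bar. The groups meet or overlap for Foxi1 and Arntl and stay apart in the other 10, and control replicate 1 is the lowest control for Ppargc1a, Nr4a2, Foxi1, Bhlha15 and Pdgfra.

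Immediate early genes, which respond within minutes to signals and to handling of tissue, included 3 that rose and 0 that fell of 16. Among all genes 5.96% were higher and 3.49% lower. Nr4a2, an orphan nuclear receptor, read 5.06, 6.28, 5.26, 5.95 and 6.32 in controls and 7.07, 7.21, 7.36, 7.85 and 7.33 after anti-CD40L. It rose by 1.59 ± 0.283, or 3.02-fold (limma adjusted p = 0.00226), and 2 of its 5 other probe sets moved the opposite way. Klf4, an epithelial transcription factor, read 6.04, 6.52, 5.98, 6.74 and 6.52 against 7.08, 7.52, 7.55, 7.33 and 7.38, and rose by 1.01 ± 0.177 (limma adjusted p = 0.00197). Nr4a3 rose by 0.85 ± 0.242 (limma adjusted p = 0.0301), lost in 6 of the 10 fits with an array left out (adjusted p up to 0.0805, without control replicate 3), with 1 of 2 other probe sets opposite. The sources used here do not give the time between death and preservation of the gland, and its part in this result was not tested.

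Clock genes divided by direction. Of 17 tested, 3 rose and 1 fell, against 5.96% higher and 3.49% lower among all genes, with a median of -0.08. Arntl, encoding BMAL1, the activator of the circadian clock, read 6.03, 5.26, 5.14, 5.02 and 5.16 in controls and 7.21, 6.64, 6.43, 7.10 and 5.96 after anti-CD40L. Control replicate 1 stood above treated replicate 5, and Arntl rose by 1.34 ± 0.313 (limma adjusted p = 0.0115), its other probe set moving the opposite way. Nfil3, a clock-controlled repressor, read 7.33, 7.42, 7.06, 6.67 and 7.04 against 8.97, 7.77, 8.19, 8.95 and 7.92, and rose by 1.26 ± 0.284 (limma adjusted p = 0.00989). Clock, the partner of BMAL1, rose by 0.76 ± 0.24 (limma adjusted p = 0.0435) and Ciart, a clock repressor, fell by 0.90 ± 0.238 (limma adjusted p = 0.0223). Of the 3 other probe sets of Clock, 1 moved the opposite way. The calls of Clock and Ciart ended in 8 and 4 of the 10 fits with an array left out (adjusted p up to 0.123, without anti-CD40L replicate 4, and 0.0672, without control replicate 3). In treated arrays Arntl, Nfil3 and Clock were all highest in replicates 1 and 4, the 2 treated arrays with Amy1 under 10 (7.34 and 7.65). Among week 24 arrays with Amy1 under 10, Arntl, Nfil3, Clock and Ciart differed by 1.96, 1.79, 1.04 and -1.59. Among those with Amy1 over 10 the differences were 0.82, 0.96, 0.65 and -0.03. These subsets were chosen after seeing the data. The sources used here do not give the hour at which glands were taken. Neither its part nor that of parotid tissue in the clock result was tested.

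The core of the ROR and REV-ERB response element, TAGGTCA on either strand, through which BMAL1 is itself clocked, was in 2.61% of all promoter windows. By gene, a count not comparable with that share, it was in a window of 7 of the 107 named genes. These were Arntl and Nfil3, which rose, Bank1, Cxcl13, Siglecg and St6gal1, which fell, and Cxcl9. The match of Arntl lies after the transcript start and is not printed. That of Nfil3, shown because Nfil3 rose with Arntl, lies on the reverse strand and begins 12 bases before the transcript start of its window, at chr13:52981040-52981081 (minus strand, GRCm38.p6), which is inside the gene, since RefSeq places the gene's outermost start further upstream.
Nfil3: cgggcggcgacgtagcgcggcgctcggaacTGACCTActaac
The capitals mark the match.

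Stromal genes rose in part. Of 19 fibroblast and matrix genes, 4 rose and 0 fell, against 5.96% higher and 3.49% lower among all genes, with a median of 0.26. In 6 every treated array lay above every control (6.38% of all genes). Col6a2, a chain of collagen VI, read 7.73, 8.76, 8.44, 8.78 and 8.69 in controls and 9.19, 9.49, 9.94, 9.03 and 9.50 after anti-CD40L, and rose by 0.95 ± 0.217 (limma adjusted p = 0.0107; 0.0534 without control replicate 1). Pdgfra, the fibroblast receptor for PDGF, rose by 0.74 ± 0.16 (limma adjusted p = 0.00819), Col1a2 by 0.84 ± 0.243 (limma adjusted p = 0.0319) and Col6a1 by 0.65 ± 0.173 (limma adjusted p = 0.0225). Of the 2 other probe sets of Col1a2, 1 moved the opposite way. Col1a2 and Col6a1 lost their calls in 5 and 2 of the 10 fits with an array left out (adjusted p 0.147 and 0.109 without control replicate 1). Vasn, a TGF-beta binding protein, read 7.73, 8.22, 7.56, 7.67 and 8.14 against 8.58, 8.29, 8.87, 8.89 and 8.61. It rose by 0.78 ± 0.132 (limma adjusted p = 0.0015) and was among the 5 higher genes called with the 3' minus 5' covariate (adjusted p = 0.0301), with Hspa1b, a stress-induced HSP70 (0.74 ± 0.119 without the covariate, limma adjusted p = 0.00107), Usp31, Rrs1 and Sh3pxd2a; these 4 were named after their values were seen.

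Vessel, fat, muscle, nerve and blood genes gave few calls. Among all genes 5.96% were higher and 3.49% lower. Of 13 endothelial genes 2 fell, Flt4, the lymphatic receptor VEGFR3 (-0.45 ± 0.128, limma adjusted p = 0.0307), and Egfl7 (-0.41 ± 0.122, limma adjusted p = 0.0378), with the other probe set of Flt4 opposite and calls lost in 5 and 7 of the 10 fits with an array left out (adjusted p up to 0.133 and 0.167, without control replicate 1). Of 7 fat cell genes 0 were called. Ucp1, the uncoupling protein of brown fat, was 8.07 and 7.52 in control replicates 1 and 2, 5.31 to 6.21 in the other controls and 4.83 to 5.22 after anti-CD40L (-1.49 ± 0.577, limma adjusted p = 0.0906), and Cidea, a lipid droplet protein, differed by -1.26 ± 0.619 (limma adjusted p = 0.171). Those controls are also the ones with high Glycam1, and the part of surrounding tissue in the lymphocyte results was not tested. Of 8 skeletal muscle genes 1 fell, Pvalb, a calcium buffer of fast fibres (-0.92 ± 0.219, limma adjusted p = 0.0133). None of 3 nerve genes was called (Pmp22 0.20, limma adjusted p = 0.375, and Mbp 0.19, limma adjusted p = 0.399), none of 2 red cell genes (Alas2 0.34, limma adjusted p = 0.215, and Hba-a2 -0.18, limma adjusted p = 0.382) and neither of 2 thyroid genes (Dio1 0.19, limma adjusted p = 0.751, and Slc5a5 -0.01, limma adjusted p = 0.965).

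Genes of protein folding, respiration and redox balance moved little. Among all genes 5.96% were higher, 3.49% lower and 9.45% called in either direction. The share called was 18.8% of endoplasmic reticulum stress genes, 10.7% of complex I subunits and 6.25% of antioxidant genes. Those of complex I and antioxidant genes were near or below the share over all genes. Of 16 endoplasmic reticulum stress genes, 2 rose, the degradation factor Sel1l (0.63 ± 0.188, limma adjusted p = 0.0376) and the BiP co-chaperone Dnajb9 (0.49 ± 0.143, limma adjusted p = 0.0333), and 1 fell, Ddit3, encoding the stress factor CHOP (-0.36 ± 0.113, limma adjusted p = 0.0461). The other probe set of Ddit3 moved the opposite way. The calls of Sel1l, Dnajb9 and Ddit3 ended in 5, 8 and 7 of the 10 fits with an array left out (adjusted p up to 0.179 without control replicate 1, 0.0859 without anti-CD40L replicate 4 and 0.132 without control replicate 3). Of 28 complex I subunits, 1 rose (Ndufa10, 0.36 ± 0.118, limma adjusted p = 0.0493) and 2 fell (Ndufv2, -0.25 ± 0.077, limma adjusted p = 0.0415, and Ndufc2, -0.24 ± 0.0779, limma adjusted p = 0.0465), all 3 lost in 7 or 8 of the 10 such fits (adjusted p 0.232, 0.186 and 0.214 without control replicate 1). Of 16 antioxidant genes 1 rose, catalase, Cat, which read 10.35, 10.48, 10.17, 10.17 and 10.54 in controls and 10.79, 10.68, 10.96, 10.93 and 10.98 after anti-CD40L (0.53 ± 0.113, limma adjusted p = 0.00784). Of 19 cell division genes 0 were called; Ube2c differed by 0.81 ± 0.474 (limma adjusted p = 0.25) and the survivin gene Birc5 by 0.64 ± 0.497 (limma adjusted p = 0.401). Of 6 genes for autoantigens of Sjogren's syndrome 0 were called, Trim21, which encodes Ro52, differing by -0.41 ± 0.217 (limma adjusted p = 0.209) and Sptan1, the source of alpha-fodrin, by 0.43 ± 0.21 (limma adjusted p = 0.17).

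The effect at week 24 was then set against that at the earlier ages, with the difference of the effects itself tested; both tests share the week 24 arrays. Against week 8, 1 of 12999 genes passed (0.00769%), Prg2, and 759 had an unadjusted p under 0.05. Its effect was 0.01 ± 0.22 at week 8, when both groups averaged 3.90, below the array medians, so that a fall could not have been measured at that age, and the effects differed by -1.84 ± 0.311 (limma adjusted p = 0.0302). The effects on Slpi, Vasn and Tnfrsf13b differed from those at week 8 by -1.97 ± 0.386, 0.96 ± 0.187 and -1.43 ± 0.291 without passing (limma adjusted p = 0.0791, 0.0791 and 0.0814). For Tnfrsf13b controls and treated glands averaged 4.91 and 4.93 at week 8, below the array medians, so there too a fall could not have been measured.

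Against week 16, 151 genes passed (1.16%). Among them were the immunoglobulin genes Ighg3 and Igha, with differences of opposite sign. The classes were not tested against each other. The effect on Ighg3 was -0.19 ± 0.409 at week 16, with controls at 6.24 and treated glands at 6.05, near the level treated glands kept at week 24 (6.08), while week 24 controls averaged 8.68. With week 16 controls so close to that level, a fall at that age may not have been measurable. The difference of the effects on Ighg3 was -2.41 ± 0.578 (limma adjusted p = 0.0339). Igha went the other way: its effect was -2.03 ± 0.266 at week 16 and -0.51 at week 24, a difference of 1.52 ± 0.376 (limma adjusted p = 0.0408), the treated glands averaging 11.42 at week 16 and 12.89 at week 24 against 13.45 and 13.40 in controls. Jchain followed with effects of -3.34 and -1.80, a difference that did not pass (1.54 ± 0.477, limma adjusted p = 0.1). For Ighm the effects were -1.08 ± 0.769, -1.45 ± 0.769 and -3.98 ± 0.769 at weeks 8, 16 and 24, and neither difference passed (limma adjusted p = 0.663 and 0.221). Of the 19 B cell genes, 0 were called at week 8 (0.0692% of all genes) and 0 at week 16 (1.88% of all genes). None of the differences between ages passed either, Ms4a1 having a limma adjusted p of 0.272 against week 8 and 0.0955 against week 16. At week 8 controls and treated glands averaged 3.70 and 3.42 for H2-Ob, 4.87 and 4.925 for Bank1 and 5.25 and 4.99 for Cd79b. These lie below the array medians, so that a fall could not have been measured at that age. Ms4a1 (5.76 and 5.405) and Cd79a (5.815 and 5.85) were near the medians.

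Several epithelial and stromal effects also differed from week 16. Foxi1 had an effect of -0.21 ± 0.222 then, and the difference was 1.46 ± 0.314 (limma adjusted p = 0.0218). Bhlha15 went from -0.27 ± 0.186 to 0.77, a difference of 1.05 ± 0.262 (limma adjusted p = 0.044). The collagen genes Col6a2, Col1a2 and Col6a1 had effects of -0.58, -0.85 and -0.52 at week 16, and the differences of 1.53 ± 0.306, 1.70 ± 0.344 and 1.17 ± 0.244 passed (limma adjusted p = 0.0156, 0.0164 and 0.0196). Pdgfra differed by 0.99 ± 0.227 (limma adjusted p = 0.0289), Vasn by 1.12 ± 0.187 (limma adjusted p = 0.00383) and Dnajb9, which was lower at week 16 (-0.77 ± 0.143), by 1.26 ± 0.202 (limma adjusted p = 0.00345). Tmigd1, an epithelial adhesion protein, rose by 0.76 ± 0.148 at week 24 (limma adjusted p = 0.00439) and was lower at week 16 (-0.84 ± 0.148), with the smallest p of this test (difference 1.60 ± 0.21, limma adjusted p = 0.000344). Cpxm1 rose by 0.69 ± 0.216 at week 24 (limma adjusted p = 0.0432), a call lost in 8 of the 10 fits with an array left out (adjusted p up to 0.183, without control replicate 1). Arntl, which also rose at week 16 (2.08 ± 0.313), and Slpi, lower at both ages, had no difference past the threshold (limma adjusted p = 0.397 and 0.689).

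**Figure D5:**
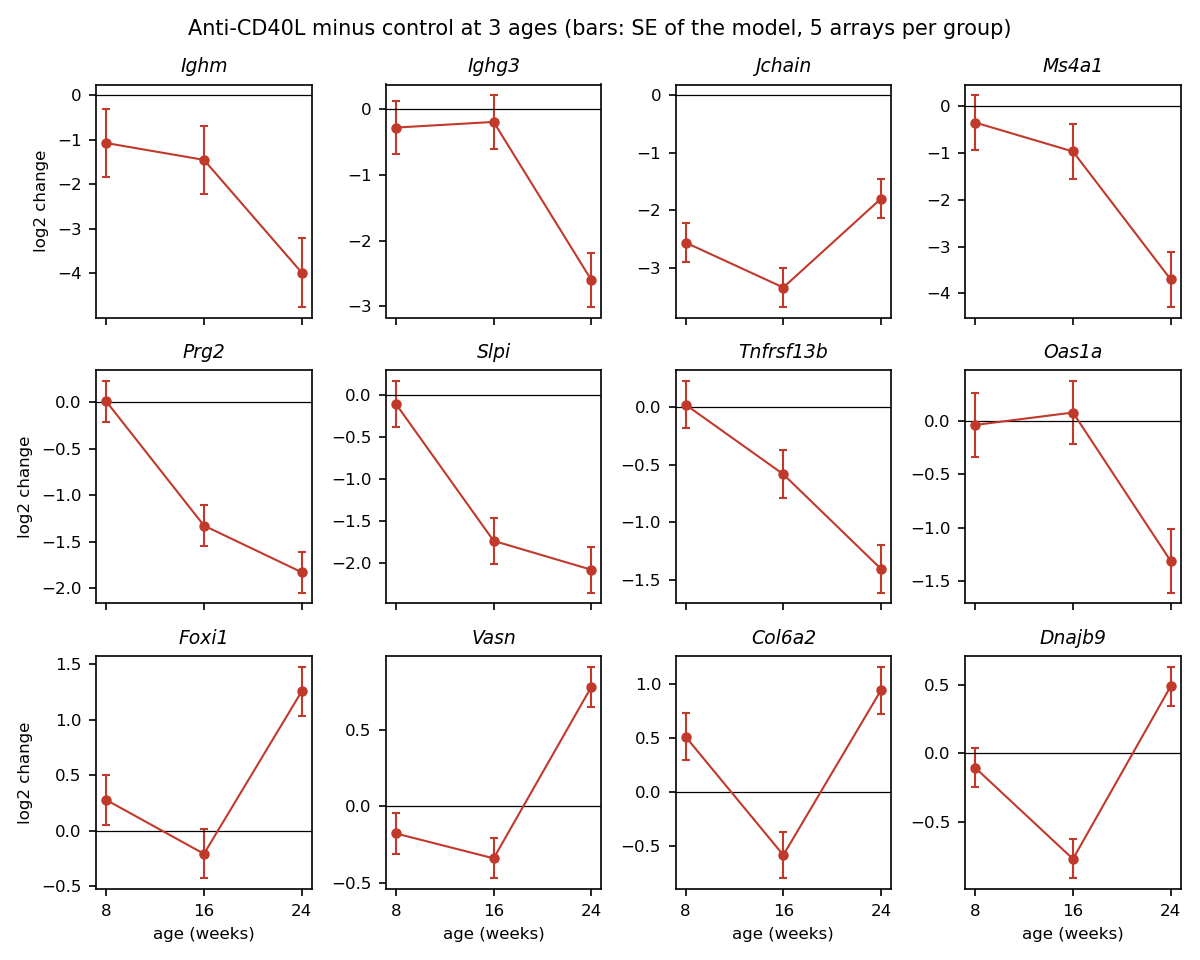
Log2 difference between anti-CD40L and control (vertical axis) at 8, 16 and 24 weeks of age (horizontal axis) for 12 genes, with bars of 1 SE from the model over 30 arrays, 5 per group. Ighg3 is near 0 until week 24 (-2.60), Jchain is lowest at week 16 (-3.34), and Foxi1, Vasn, Col6a2 and Dnajb9 are below 0 at week 16 and above 0 at week 24.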

How the data were processed

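RNA of whole salivary gland was measured on 30 arrays in 6 groups of 5, of which 10 are the week 24 glands. The deposited table holds log2 intensities by its range, 2.757 to 14.457; scale and centring are otherwise unstated, and it was used without further normalization. Per the labels' protocols, cRNA was made from 2 ug of total RNA, and the submitters' processing notes name limma; the sources used here do not state how probes were summarized. Depth has no counterpart on arrays, whose number (5 per group) limits the precision.

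Of 45101 probe sets, 34958 had exactly 1 gene in the platform table, 932 several and 9211 none here. Each of 18194 genes was read from its probe set with the highest mean over 30 arrays, and tested when above its array's median in at least 5 arrays. In limma, a model with the 6 group means was fitted to the 30 arrays (limma 3.58.1, R 4.3.3), with 24 residual degrees of freedom and Benjamini-Hochberg adjustment over 12999 genes. The fit was tested on simulated data. P-values measure the spread between the labels' biological replicates, pooled over the 6 groups. Single groups can differ from it: for H2-Ob the week 24 controls had an SD of 1.72 and the treated arrays one of 0.187.

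The members, the gene lists and the rules were chosen with earlier results of these data known. Named genes are Cd40lg and Cd40, the 15 largest rises and falls called, up to 4 called members of each list (or 2 members with the largest difference), the 5 with the smallest p of each test between ages, and genes said to be named after their values were seen. Some genes of the rule are not reported here. Gene lists were given no test of their own. Alternatives were other normalizations, filters, variance models, arrays and covariates, a replicate block, and each array left out.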

Additional observations from a re-analysis of the deposited data

Results flagged for a closer look

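Dixon's test was applied to the named genes and 3 summary measures in each group of 5 arrays, and chance marks about 1 in 20 groups; 15 of 284 tests found an array far from the others. Anti-CD40L replicate 2 was far above the rest of its group for Prp2 (8.80), Psmb8 (10.28), Psmb9 (9.15), Prpmp5 (8.46), Pvalb (6.34) and the mean skeletal muscle level (6.67), and below it for Dnajb9 (10.66). Anti-CD40L replicate 3 was high for Col1a2 (11.56) and Col6a1 (8.85), and anti-CD40L replicate 4 low for Cxcr4 (4.79). Control replicate 1 was high for Arntl (6.03) and low for Ndufa10 (10.36), control replicate 4 low for Ms4a7 (7.79) and Hba-a2 (5.96), and control replicate 2 high for Pvalb (7.46).

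The effect at week 24 differed from that at week 8 for Prg2, by -1.84, as tested in limma over all genes. Against week 16 it was higher for Foxi1 (1.46), Bhlha15 (1.05), Trp63 (0.67), Col6a2 (1.53), Col1a2 (1.70), Pdgfra (0.99), Col6a1 (1.17), Dnajb9 (1.26), Vasn (1.12), Tmigd1 (1.60), Cpxm1 (1.87), Hspa1b (0.69) and Igha (1.52). It was lower for Ighg3 (-2.41), S100a8 (-2.16), Steap1 (-1.01) and Nostrin (-1.04). S100a8, Steap1 and Nostrin, which had been higher after anti-CD40L at week 16 (1.37, 0.68 and 0.97), had week 24 differences of -0.79, -0.33 and -0.07 that did not pass (limma adjusted p = 0.124, 0.0594 and 0.715).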

How the results depend on the processing

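The count of genes called at week 24 moved most with the arrays and with RNA quality. It was 1229 as reported, 23 (5 higher, 18 lower) with the 3' minus 5' covariate and 1888 (1266 higher) with Amy1 as covariate. It was 129 (72 and 57) when the 10 arrays were fitted alone, with fewer degrees of freedom and a spread estimated from these arrays only. Among arrays with Amy1 under 10 (3 controls, 2 treated) it was 387 (120 and 267) and with Amy1 over 10 (2 and 3) it was 27 (21 and 6); these subsets were chosen after seeing the data, and their groups hold 2 or 3 arrays. Quantile normalization gave 633 higher and 676 lower, median centring 840 and 388. Leaving out an array gave 226 to 2132 genes, 122 to 1522 higher and 104 to 869 lower. Of the 110 called genes that the naming rule or its additions chose, 55 kept the call without control replicate 1. Without anti-CD40L replicate 4 it was 66, and these were the lowest numbers over the fits with 1 array left out. With the 10 arrays fitted alone, 43 of the 110 kept the call. Those that lost it then included H2-Ob, Bank1, Cd3g, Ms4a4b, Tnfrsf13c, Ltb and Cxcr4 (limma adjusted p = 0.0616, 0.0738, 0.0558, 0.0558, 0.0668, 0.052 and 0.0547). The cause was not tested.

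Genes whose effect differed from week 8 numbered 1 as reported, 2 with Amy1 as covariate, 3 with the median over probe sets, 24 and 0 in the low and high Amy1 subsets, 0 with array weights and with the stricter filter, and 0 to 9 with an array left out. Against week 16 the 151 became 71 with the 3' minus 5' covariate, 764 with array weights, 265 with quantile normalization, 230 and 32 in the low and high Amy1 subsets, and 47 to 352 with an array left out.

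In the order B cell, plasma cell, T cell, leukocyte and MHC class II, the genes lower were 14, 5, 10, 12 and 5. They were 3, 2, 1, 0 and 0 with the 3' minus 5' covariate, 3, 3, 2, 3 and 0 in the 10 arrays alone, and 0 in each with high Amy1. Low Amy1 gave 6 T cell and 1 class II gene, and the stricter filter 5 B cell, 2 plasma cell, 3 T cell and 3 class II genes. Leaving out an array gave 9 to 14, 3 to 5, 5 to 10, 5 to 13 and 1 to 6. Of the immunoglobulin constant genes 4 were lower as reported, 1 with the 3' minus 5' covariate and 0 with high Amy1.

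Replicate numbers did not pair the samples: same-numbered arrays had correlations of deviations between -0.32 and -0.06. The replicate block gave 1137 genes, 765 higher and 372 lower, 0 that differed from week 8, and 3 class II genes.

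Differences that changed sign were all uncalled. With the 3' minus 5' covariate these were Prpmp5 (0.80), Dnase1 (2.34), Mbp (-0.0539), Dio1 (-0.20) and Sptan1 (-0.0644), and with array weights Prpmp5 (0.39) and Dnase1 (1.44). Low Amy1 turned Prpmp5 (0.0737), Crisp3 (0.15), Pmp22 (-0.13), Mbp (-0.0203), Dio1 (-0.52), Ube2c (-0.12) and Birc5 (-0.24), and high Amy1 Il21r (0.0275), Ltf (1.21), C1qb (0.10) and Trim21 (0.0573). Slc5a5 was 0.0084 with median centring and 0.11 with the median over probe sets. With an array left out Prpmp5 ran from -1.28 to 0.53, Dnase1 from -1.29 to 0.62, Crisp3 from -0.34 to 0.0308, Slc5a5 from -0.075 to 0.0669 and Nostrin from -0.13 to 0.0085. Signal near background limits genes such as Cd40lg, where no level was tested.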
